A study of Mus musculus with 24 samples.

Results

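The 10 glutathione S-transferase (GST) genes followed here in mouse liver were the Alpha class genes Gsta1, Gsta2, Gsta3 and Gsta4, the Mu class genes Gstm1, Gstm2 and Gstm3, the Pi class gene Gstp1 and the Theta class genes Gstt1 and Gstt3. They were taken by symbol from a table of 23972 genes, all 10 were found, and each was kept by a standard filter on low counts. The study sequenced polyadenylated RNA from livers of 24 female mice in 4 groups, with 1 library per mouse: 7 vehicle-treated controls, 3 FGF21-treated controls, 6 vehicle-treated Lmna ADKO mice and 8 FGF21-treated Lmna ADKO mice. Both genotypes carried Lmna fl/fl alleles with loxP sites around exons 10 and 11. Controls lacked Adipoq-Cre, and Lmna ADKO mice carried Adipoq-Cre, which is driven by the adiponectin promoter and removes lamin A/C in adipocytes, not in liver cells. All mice were 12 to 14 weeks old at the start, were housed at 22°C on a 60% high-fat diet, and received vehicle or an adeno-associated virus expressing FGF21 after 4 weeks of diet, with euthanasia 8 weeks later. The labels name the treated groups as "Rescue" and the sample titles as "Tx", without naming FGF21. The reading of this as FGF21 comes from the study's text, which describes liver RNA sequencing of FGF21-treated and vehicle-treated mice.

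GSTs join the tripeptide glutathione to electrophilic compounds, such as drug metabolites and products of lipid peroxidation, so that they can be exported and broken down. Liver is rich in them, and several Alpha, Mu and Pi genes are textbook targets of the transcription factor NRF2, which binds antioxidant response elements (AREs), and of the xenobiotic receptors CAR, PXR and AHR. The classes differ in substrates: Alpha enzymes reduce lipid hydroperoxides, GSTA4 conjugates 4-hydroxynonenal, and Theta enzymes act on small halogenated compounds.

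In vehicle-treated mice, 5 of the 10 genes were called higher in Lmna ADKO livers, where 5.12% of all genes were, and none was called lower, where 3.36% were: Gsta1, Gstm1, Gstm2, Gstm3 and Gstp1. Gsta1 rose 16.7-fold from a very low level, Gstm3 4.75-fold, Gstp1 2.59-fold, Gstm2 1.97-fold and Gstm1 1.52-fold, the last a call that was lost in 9 of 13 fits that left out 1 library and with the animal number series as a term. Gsta2, Gsta3, Gsta4, Gstt1 and Gstt3 did not pass the test. In FGF21-treated mice, where 1.61% of all genes were called higher, only Gstm2 of the 10 passed, 2.12-fold higher in Lmna ADKO livers, and none of the 10 genes passed the test of FGF21 against vehicle in either genotype.

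Some of these genes are close in sequence. All coordinates are GRCm38. Gsta1 (chr9:78230656-78242684, plus strand) and Gsta2 (chr9:78331018-78355788, minus strand) lie on the same chromosome, and over their coding sequences, taken as the longest reading frame of the annotated transcripts, they were 97.5% identical, with 17 differing positions in the alignment. Gstp1 (chr19:4035407-4037985, minus strand) and its neighbor Gstp2 were 98.1% identical. By contrast, Gstm1 (chr3:108012255-108017973), Gstm2 (chr3:107981702-107986453) and Gstm3 (chr3:107963696-107969283), all on the minus strand, were 78.1% to 84.8% identical to each other. The coding window of 60 bases in which Gsta1 and Gsta2 differ most holds 5 differences, marked in capitals, and lies in exon 6 of 7 of each gene (chr9:78241561-78241620 for Gsta1 and chr9:78332125-78332184 for Gsta2). It is shown because reads can be told apart between both genes only at positions that differ, here or elsewhere in the transcripts.
Gsta1: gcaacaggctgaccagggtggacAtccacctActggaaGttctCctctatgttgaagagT
Gsta2: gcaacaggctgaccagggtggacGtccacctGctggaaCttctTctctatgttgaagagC

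Counted over all annotated transcripts, 26.3% of the 150-base stretches of the Gsta1 transcript were found in no other gene, against 73.2% for Gsta2, 58.2% for Gstp1, 78.3% for Gstt3, 96.6% for Gstm3 and 100% for Gsta3, Gsta4, Gstm1, Gstm2 and Gstt1. This length is that of the reads named in the methods, which were paired-end. Single stretches were counted, without taking the pairing into account. The genes sharing the other Gsta1 stretches were Gsta2 and 2 predicted protein-coding genes, Gm3776 and Gm10639. Those sharing Gstp1 stretches were Gstp2 and the pseudogene Gstp-ps, and the gene sharing Gstt3 stretches was Gm20441. The split of counts between such genes was made by the authors' counting and is uncertain.

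The proximal promoters of 4 of the 5 genes called higher under vehicle are shown with that of Gsta2, the close relative of Gsta1 that did not pass the test. RefSeq promoter entries on GRCm38.p6 matched 9 of the 10 genes (none for Gsta4). Each line gives the 250 bases before the RefSeq start of the gene, 5′ to 3′ on the gene's own strand. This start can differ from that of the Ensembl gene used for counting: the Gsta2 window lies well inside the Ensembl gene span given above, and the windows of Gsta1, Gstm2, Gstm3 and Gstp1 reach partly into theirs. Capitals mark each match to the core of the ARE, TGANNNNGC, on either strand. The windows are chr9:78230419-78230668 (Gsta1, plus strand), chr9:78347146-78347395 (Gsta2, minus), chr3:107986421-107986670 (Gstm2, minus), chr3:107969175-107969424 (Gstm3, minus) and chr19:4037913-4038162 (Gstp1, minus).
Gsta1: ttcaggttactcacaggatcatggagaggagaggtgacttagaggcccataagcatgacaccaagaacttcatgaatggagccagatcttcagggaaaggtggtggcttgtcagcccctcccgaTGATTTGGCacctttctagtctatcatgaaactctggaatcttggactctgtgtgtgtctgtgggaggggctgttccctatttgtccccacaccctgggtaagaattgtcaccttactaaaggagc
Gsta2: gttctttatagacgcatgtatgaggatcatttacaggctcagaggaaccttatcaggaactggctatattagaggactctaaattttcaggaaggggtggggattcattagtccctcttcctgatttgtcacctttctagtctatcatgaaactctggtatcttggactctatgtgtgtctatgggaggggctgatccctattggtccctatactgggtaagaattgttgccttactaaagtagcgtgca
Gstm2: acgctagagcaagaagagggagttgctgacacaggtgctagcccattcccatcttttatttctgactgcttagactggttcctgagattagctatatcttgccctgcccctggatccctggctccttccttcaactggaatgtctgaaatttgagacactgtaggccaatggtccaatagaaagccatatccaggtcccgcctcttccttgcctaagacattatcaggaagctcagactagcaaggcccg
Gstm3: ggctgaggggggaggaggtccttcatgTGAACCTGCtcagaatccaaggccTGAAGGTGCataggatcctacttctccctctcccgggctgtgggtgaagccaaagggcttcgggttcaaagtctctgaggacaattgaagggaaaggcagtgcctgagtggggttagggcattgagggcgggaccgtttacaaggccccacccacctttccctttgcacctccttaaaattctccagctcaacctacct
Gstp1: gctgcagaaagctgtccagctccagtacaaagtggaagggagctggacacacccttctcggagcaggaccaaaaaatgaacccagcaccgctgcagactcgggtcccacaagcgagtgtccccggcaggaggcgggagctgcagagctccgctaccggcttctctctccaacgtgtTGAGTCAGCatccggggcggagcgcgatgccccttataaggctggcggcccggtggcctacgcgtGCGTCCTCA

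A match was present in 6 of the 9 genes with an entry, and in 35.2% of all 32851 promoter windows of that length. In Gsta1 it lay 126 to 118 bases before the start, and the aligned Gsta2 promoter, 72.6% identical to that of Gsta1, held none. In Gstp1 there were 2 matches, 1 of them at 74 to 66 bases before the start with the letters TGAGTCAGC. In Gstm3 there were 2 matches, and in Gstm2 and both entries of Gstm1 (not shown), which were also higher in Lmna ADKO livers, there was none. Gsta3, Gstt1 and Gstt3, which did not pass the test, each had at least 1. The stricter core TGACNNNGC, a subset of the first, was found only in Gsta3, and in 10.2% of all windows. A match describes the letters of the window, not binding. Bases outside the windows of 250 were not searched, so a gene without a match may hold one elsewhere.

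Counts as deposited were scaled to CPM, the usual unit of counts relative to the library size, after library sizes were adjusted by the TMM method. Total counts were 19863304 to 21510054 per library. By a measure of gene length, 3 libraries stood apart: when each library's expression, relative to the median of its genotype, was regressed on exonic length over 9694 genes, the slopes were -0.331 in Lmna ADKO FGF21 library 7, -0.289 in control FGF21 library 3 and -0.154 in control vehicle library 3, against -0.109 to 0.128 in the other 21 libraries, so short genes were relatively high in these 3. No cutoff on the slope was set, and control vehicle library 3 lay near the range of the other 21. Results that depend on the 3 libraries are given with and without them. Liver Lmna was not reduced in Lmna ADKO mice: it was 1.44-fold higher under vehicle (edgeR adjusted p = 0.00322), below the fold threshold of 1.5. The mean liver Fgf21 level of controls was 4.78 ± 2.29 CPM with FGF21 (SD, n = 3) against 4.01 ± 3.18 CPM with vehicle (SD, n = 7). That of Lmna ADKO livers was 5.36 ± 2.41 CPM with FGF21 (SD, n = 8) against 7.99 ± 2.48 CPM with vehicle (SD, n = 6). The fold of FGF21 against vehicle in Lmna ADKO livers was 0.671 (edgeR adjusted p = 0.73), and that of Lmna ADKO against control under vehicle was 1.99 (edgeR adjusted p = 0.0898), neither of which passed, so liver Fgf21 gave no check of the treatment label. Library numbers have no order.

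The 10 genes together took 0.194% to 0.397% of all counts in vehicle-treated control livers and 0.442% to 0.559% in vehicle-treated Lmna ADKO livers, without overlap in these unadjusted counts. In TMM-adjusted CPM the groups overlapped: their summed level was 1840 to 4340 CPM, 3170 ± 862 (SD, n = 7), in the former and 4210 to 5600 CPM, 4810 ± 557 (SD, n = 6), in the latter, where the lowest library was below control library 3. FGF21-treated controls had 3880 ± 1140 CPM (SD, n = 3). FGF21-treated Lmna ADKO livers had 5220 ± 1950 CPM (SD, n = 8), including library 7 at 9910 CPM. Gsta3 and Gstm1 made up 65.5% to 75.5% of this sum in every library. No test was run on the sum, since the genes were chosen with results known.

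Per length, in CPM per kb of annotated exons, Gstm1 had the highest level in vehicle-treated controls, 826 ± 243 (SD, n = 7), with every library above every library of the next genes. Gstt1 at 241 ± 60.1, Gsta3 at 238 ± 78.6 and Gstp1 at 182 ± 47.6 followed and overlapped. Gsta4 at 41.1 ± 11.7, Gstm2 at 37.9 ± 13.6, Gstt3 at 28.1 ± 13.5, Gstm3 at 21.2 ± 10 and Gsta2 at 17.4 ± 12.1 each overlapped their neighbors, and Gsta1 was lowest at 0.957 ± 0.943. In vehicle-treated Lmna ADKO livers the order was Gstm1 at 1250 ± 162, Gstp1 at 471 ± 70.6, Gsta3 at 346 ± 68.2, Gstt1 at 203 ± 29.4, Gstm3 at 101 ± 38.3, Gstm2 at 74.6 ± 11.8, Gsta4 at 41.8 ± 8.16, and then Gstt3, Gsta2 and Gsta1 at 18.3, 16.4 and 16. Gstm3 thus stood above Gsta4 and Gstt3, and Gsta1 overlapped Gsta2. The order among the genes with high levels depends on the length used. All annotated exons were counted above, and the coding transcript is shorter for 9 of the 10 genes, with 1457 bases against 4344 for Gsta3, 1880 against 3842 for Gstt3, 821 against 1548 for Gstp1 and 828 against 1473 for Gstm1. Per kb of that transcript, vehicle-treated controls had 1470 ± 433 CPM for Gstm1, 710 ± 234 for Gsta3, 354 ± 88.5 for Gstt1 and 342 ± 89.7 for Gstp1 (SD, n = 7), and Gsta3 and Gstm1 then overlapped. Vehicle-treated Lmna ADKO livers had 2230 ± 288 for Gstm1, 1030 ± 205 for Gsta3 and 888 ± 133 for Gstp1 (SD, n = 6), with the last pair overlapping, so that Gstp1 stood below Gsta3 on this scale and above it on the other.

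**Figure D1:**
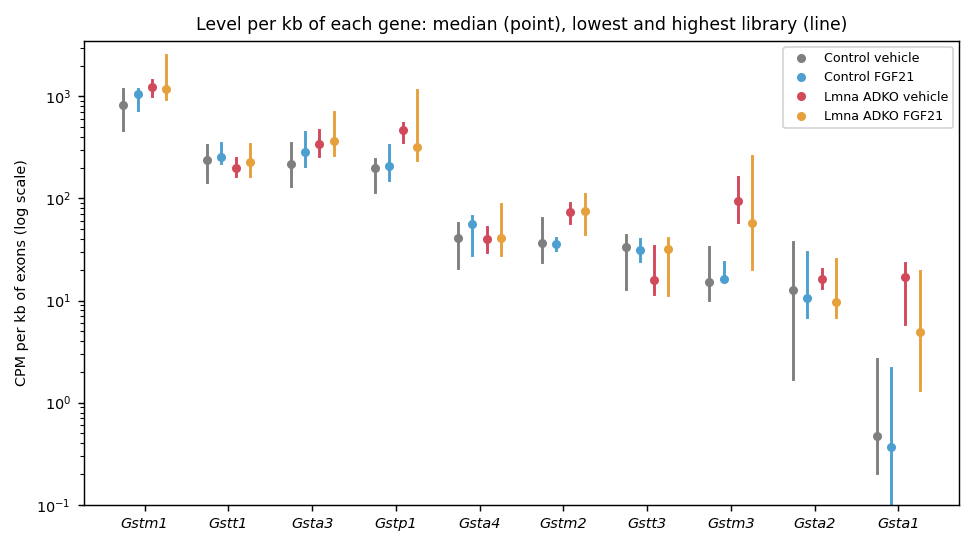
Level of each gene in CPM per kb of exons (log axis, from 0.1) in the 4 groups, as the median (point) and the lowest to highest library (line). Gstm1 is highest in every group, and Gsta1 is lowest in both control groups; 1 FGF21-treated control library with 0 Gsta1 counts falls below the axis.

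Does adipocyte loss of Lmna alter hepatic GST expression? This was asked first in vehicle-treated mice, 6 Lmna ADKO against 7 controls. A gene was called changed at an adjusted p under 0.05 in edgeR's quasi-likelihood test, fitted to all 23972 genes with Benjamini-Hochberg adjustment, and a fold change above 1.5. Of all genes, 5.12% were called higher and 3.36% lower. Of the GST genes, 5 of 10 were called higher and 0 lower. An unadjusted p under 0.05 was found for 6 of the 10 and for 6481 of all 23972 genes. After edgeR's filter on low counts, which kept 14699 genes with all 10 among them, 1991 genes were called in either direction. Without the filter that number was 2033 of 23972. The same 5 GST genes were called after the filter. The median log2 fold change was 0.57 over the 10 genes and -0.01 over the 12492 genes whose mean log2 CPM was 0 or more.

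Gsta1 encodes an Alpha class enzyme with activity toward lipid hydroperoxides. Its level in vehicle-treated controls was 0.195 CPM in the lowest library, 0.454 in the median and 2.56 in the highest, which are 4 to 52 counts. In vehicle-treated Lmna ADKO livers it was 5.68, 16.2 and 22.1 CPM, or 126 to 530 counts. The groups did not overlap, which was also true of 4.22% of all genes in this direction and of 3.73% in the other, in which none of the 10 GST genes lay. The log2 fold change was 4.06 (SE 0.701, 95% confidence interval 2.60 to 5.52), with an adjusted p of 0.000422.

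Gsta2, its close relative, ranged from 2 to 44.1 CPM (median 14.9) in controls and from 15.6 to 24 CPM (median 19.2) in Lmna ADKO livers. The control libraries spread on both sides of the Lmna ADKO libraries. The log2 difference was -0.09 with an interval of -1.06 to 0.89 (edgeR adjusted p = 0.965).

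Within the pair, the share of Gsta1 was 1.61% to 18.5% in controls (median 3.21%) and 26.6% to 53.7% in Lmna ADKO livers (median 44.2%). The control library with 18.5% had only 54 counts for both genes, 10 of them Gsta1, and an exact 95% binomial interval of 9.25% to 31.4%. Without it the controls did not exceed 5.47%. Such intervals cover counting error only.

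**Figure D2:**
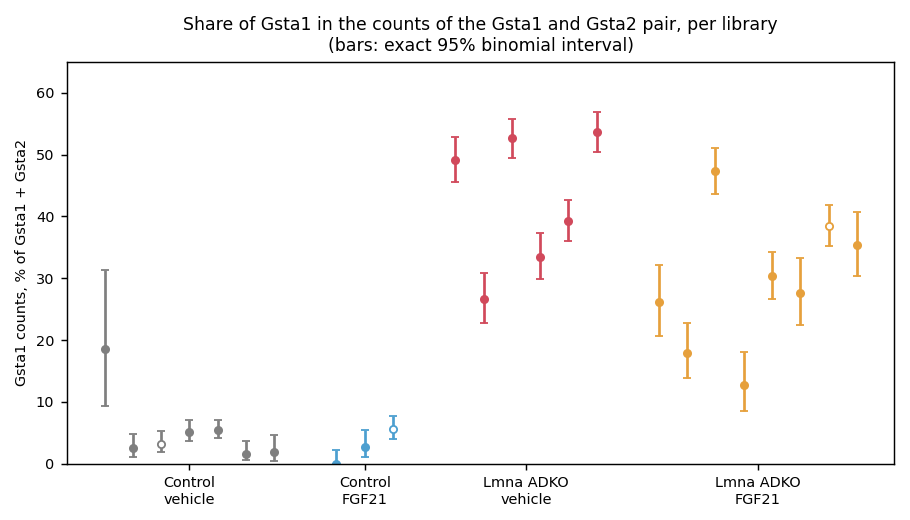
Gsta1 counts as a percentage of Gsta1 plus Gsta2 counts, for each of the 24 libraries in 4 groups, with exact 95% binomial intervals; open points are the 3 libraries that stand apart by gene length. Vehicle-treated Lmna ADKO libraries lie between 26.6% and 53.7%, and 9 of the 10 control libraries lie at 5.68% or below.

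Of the 3 genes that share sequence with Gsta1, both predicted genes were higher and Gsta2 did not pass. Gm3776 was at 0 to 1.92 CPM in vehicle-treated controls and 5.5 to 19.3 CPM in Lmna ADKO livers, for a log2 fold change of 4.46 (edgeR adjusted p = 0.00026). Gm10639 had 0 counts in all 7 controls and 2 to 20 counts in the 6 Lmna ADKO libraries. Summing Gsta1, Gm3776 and Gm10639 gave a log2 fold change of 4.25 (edgeR adjusted p = 0.000287), whereas adding Gsta1 to Gsta2 gave 0.69 (edgeR adjusted p = 0.404) and adding all 4 gave 1.14 (edgeR adjusted p = 0.16). How the authors' counting divided reads among these 4 genes was not tested. The sums with the predicted genes were chosen after their values were seen.

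Gsta3, the most abundant Alpha gene, was at 573, 946 and 1500 CPM (lowest, median and highest library) in controls and 1130, 1470 and 2010 CPM in Lmna ADKO livers. All 6 Lmna ADKO libraries were above the control median, but only 2 were above every control. Its log2 difference of 0.54 (interval 0.08 to 1) did not pass (edgeR adjusted p = 0.112). Without the 3 libraries that stand apart it was 0.63 and passed (edgeR adjusted p = 0.0295).

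Gsta4, whose enzyme conjugates 4-hydroxynonenal, was at 26.5, 51.4 and 73.1 CPM in controls and 37.8, 51.1 and 66.2 CPM in Lmna ADKO livers. The groups overlapped fully, and the interval of the log2 difference was -0.49 to 0.54.

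Of the Mu class, Gstm3 changed most. It was at 13.2, 19.7 and 43.8 CPM in controls (lowest, median and highest library) and at 77.4, 123 and 214 CPM in Lmna ADKO livers. The groups were separate, and the log2 fold change was 2.25 (SE 0.472, interval 1.26 to 3.23, edgeR adjusted p = 0.00235).

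Gstm2 was at 40.2, 61.5 and 108 CPM in controls and 96.9, 124 and 153 CPM in Lmna ADKO livers. Control library 5, at 108 CPM, lay above the lowest Lmna ADKO library, and the other 5 Lmna ADKO libraries were above every control. The log2 fold change was 0.98 (SE 0.196, interval 0.57 to 1.38, edgeR adjusted p = 0.0011).

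Gstm1, the gene with the highest level of all 10 per length, was at 685, 1200 and 1750 CPM in controls and 1480, 1810 and 2120 CPM in Lmna ADKO livers. In Lmna ADKO mice 5 of 6 libraries were above every control, and the lowest was below control library 3 at 1750 CPM, which is 1 of the 3 libraries with high short-gene reads. Its log2 fold change of 0.60 (SE 0.201, interval 0.19 to 1.01, edgeR adjusted p = 0.0402) was just past both thresholds, and the gene was called in only 4 of the 13 fits that each left out 1 library. Without the 3 libraries that stand apart it was 0.72 (edgeR adjusted p = 0.000553).

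Gstp1, the Pi class gene, was at 178, 308 and 376 CPM in controls and 547, 723 and 857 CPM in Lmna ADKO livers. The groups were separate, with a log2 fold change of 1.38 (SE 0.294, interval 0.77 to 1.98, edgeR adjusted p = 0.00222). Summed with Gstp2 and Gstp-ps, which share its sequence, it had a log2 fold change of 1.36 (edgeR adjusted p = 0.00241), and Gstp2 alone, at 2.92 to 6.47 CPM in controls and 2.97 to 7.69 CPM in Lmna ADKO livers, was not called. The share of reads that went to the wrong gene of this pair was not tested.

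The Theta genes did not pass. Gstt1 was at 223, 367 and 512 CPM in controls and 253, 304 and 384 CPM in Lmna ADKO livers, with 5 of 6 Lmna ADKO libraries at or below the control median and a log2 difference of -0.25 (interval -0.59 to 0.09). Gstt3 was at 49.7, 129 and 168 CPM in controls, with 3 libraries at 49.7 to 59.0 CPM and 4 at 129 to 168 CPM, and 44.9, 61.4 and 131 CPM in Lmna ADKO livers. Its log2 difference was -0.62 (interval -1.33 to 0.08, edgeR adjusted p = 0.254).

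**Figure D3:**
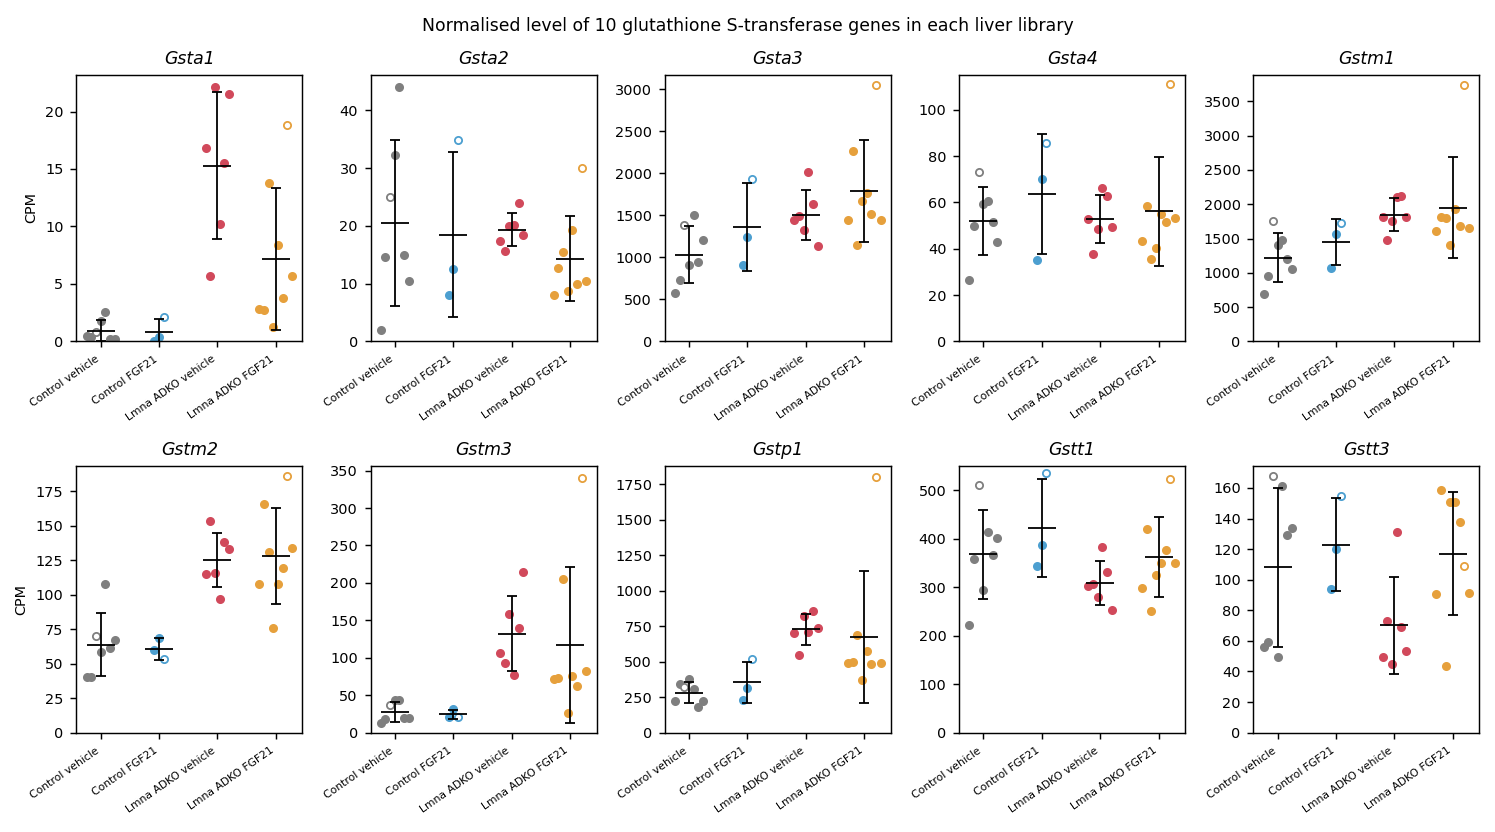
CPM of each of the 10 genes in every library (points) by group, with the mean and SD (black bars, axes from 0); open points are the 3 libraries that stand apart by gene length. Vehicle-treated Lmna ADKO libraries are all above the vehicle-treated controls for Gsta1, Gstm3 and Gstp1, and Lmna ADKO FGF21 library 7 is the highest library of its group for 9 of the 10 genes.

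The call for Gsta1, Gstm2, Gstm3 and Gstp1 held in all 13 fits that left out 1 library. The animal numbers in the labels have 3 digits in 6 of 7 vehicle-treated controls and in 1 of 6 vehicle-treated Lmna ADKO mice, so no comparison of these groups within one number series could be made; with the number of digits as a term Gsta1, Gstm2, Gstm3 and Gstp1 were called, and Gstm1 was not (log2 fold change 0.46, edgeR adjusted p = 0.269). In bulk liver RNA, a change in the share of a cell type and a change in RNA per cell cannot be told apart.

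Markers of other cell types moved in the same comparison, in which 5.12% of all genes were called higher and 3.36% lower. Of 8 cholangiocyte markers, 2 were called higher (Spp1, and Cftr at 0 to 0.0486 CPM in controls) and Krt19, the first of the list, was not (0.681 to 1.33 CPM in controls and 1.44 to 2.18 CPM in Lmna ADKO livers); the summed level of the list was 39.8 to 65.8 CPM in controls and 98.9 to 207 CPM in Lmna ADKO livers. Of 10 stellate cell and fibroblast markers 4 were called higher, with sums of 246 to 367 and 332 to 508 CPM. Of 10 macrophage markers 1 was called higher (Gpnmb) and 0 lower, with a median log2 fold change of -0.16. Their sums were 638 to 899 CPM in controls and 457 to 774 CPM in Lmna ADKO livers. Of 8 endothelial markers 2 were called higher (Lyve1 and Vwf) and 0 lower, with sums of 254 to 323 and 250 to 315 CPM. Of 8 lymphocyte markers 0 were called in either direction. Of 10 hepatocyte markers 0 were higher and 2 lower, of 12 pericentral genes 0 higher and 7 lower, and of 12 periportal genes 1 higher and 5 lower. Of 6 adipocyte markers only Cidec, which fatty hepatocytes also express, was called, and Adipoq was at 0 to 0.135 CPM in Lmna ADKO livers. The part of these cell types in the GST differences was not tested.

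The comparison was repeated in FGF21-treated mice, 8 Lmna ADKO against 3 controls. Of all genes, 1.61% were called higher and 1.26% lower. Of the GST genes 1 of 10, Gstm2, was called higher and 0 lower. An unadjusted p under 0.05 was found for 4 of the 10 and for 4063 of all 23972 genes. The median log2 fold change of the 10 was 0.41. Animal numbers had 3 digits in 4 of the 8 Lmna ADKO mice and in 0 of the 3 controls. With the number series as a term only Gstm2 was called (log2 fold change 1.16, edgeR adjusted p = 0.0189). The same held in mice with 4-digit numbers only (1.17, edgeR adjusted p = 0.0437).

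Gstm2 was at 53.0, 59.8 and 68.5 CPM in the 3 controls and at 75.5 CPM (lowest), 125 (median) and 186 (highest) in the 8 Lmna ADKO livers. The groups did not overlap, as was true of 3.14% of all genes in this direction, and of 2.37% in the other, which held none of the 10. The log2 fold change was 1.09 (SE 0.254, interval 0.56 to 1.61, edgeR adjusted p = 0.0142). The call was lost when control FGF21 library 1 or 3 was left out, with a highest adjusted p of 0.114 over the 11 fits, and without the 3 libraries that stand apart it was 0.91 (edgeR adjusted p = 0.154), a fit that left 2 controls.

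Gstm3 was at 20.5, 21.4 and 31.2 CPM in controls and at 26.7, 74.5 and 340 CPM (lowest, median and highest) in Lmna ADKO livers. In Lmna ADKO mice 7 of 8 libraries were above every control. Its log2 fold change of 2.26 was close to that under vehicle, but with an interval of 0.92 to 3.60 and an edgeR adjusted p of 0.0526 it did not pass.

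Gsta1 had 0, 0.350 and 2.10 CPM in the 3 controls, and 1.26, 4.74 and 18.8 CPM (lowest, median and highest) in Lmna ADKO livers. Again 7 of 8 Lmna ADKO libraries were above every control. The library without a Gsta1 count allows up to 3 counts, which is at most 0.176 CPM in any library here. The log2 fold change was 3.21 (interval 1.12 to 5.29, edgeR adjusted p = 0.0804), and it ranged from 2.58 to 5.33 when single libraries were left out. The share of Gsta1 in the Gsta1 and Gsta2 pair was 0% to 5.68% in the controls and 12.7% to 47.3% in Lmna ADKO livers, with no overlap.

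Gstp1 was at 232, 318 and 516 CPM in controls and at 369, 496 and 1800 CPM in Lmna ADKO livers. All 8 Lmna ADKO libraries were above the control median but 3 were above every control, since control library 3 was at 516 CPM. The log2 difference was 0.93 (interval 0.15 to 1.70, edgeR adjusted p = 0.193), and with the gene length slope as a term it was 0.99 and passed (edgeR adjusted p = 0.011).

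Other settings called more of these genes. DESeq2 and edgeR after a filter on low counts both called Gsta1, Gstm2 and Gstm3. Over all genes, DESeq2 called 1022 of 16062 in either direction and edgeR after the filter 838 of 14699, against 690 of 23972 without it. With the gene length slope as a term, edgeR called Gsta1, Gstm2, Gstm3 and Gstp1. Without the 3 libraries that stand apart none was called. The remaining 6 genes did not pass under any of these settings, and the intervals of their log2 differences were -1.55 to 0.81 for Gsta2, -0.18 to 0.97 for Gsta3, -0.80 to 0.44 for Gsta4, -0.08 to 0.94 for Gstm1, -0.63 to 0.18 for Gstt1 and -0.92 to 0.77 for Gstt3.

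**Figure D4:**
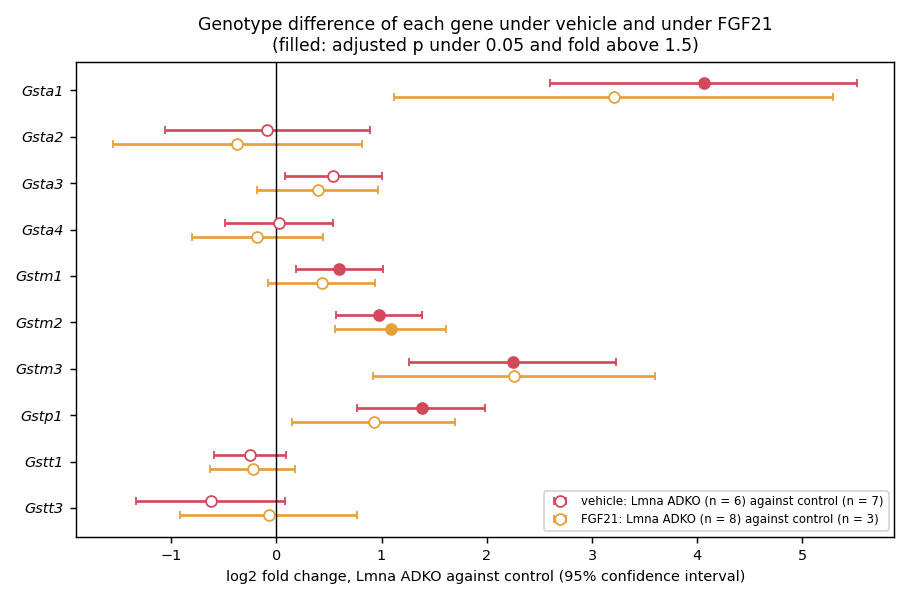
Log2 fold change of Lmna ADKO against control for each gene, with 95% confidence intervals, under vehicle (red) and FGF21 (orange); filled points were called at an adjusted p under 0.05 and a fold above 1.5. Under vehicle 5 genes are filled and under FGF21 1, Gstm2, where intervals are wider.

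Whether the genotype difference itself changed with FGF21 was tested as the interaction of genotype and treatment. Of all genes 0.00417% were called in either direction, and of the GST genes 0 of 10 by edgeR and 0 by DESeq2. In edgeR 0 of the 10 had an unadjusted p under 0.05, against 1165 of all 23972 genes. The interaction estimate was -0.85 on the log2 scale for Gsta1 (interval -3.42 to 1.72), 0.11 for Gstm2 (-0.53 to 0.75), 0.01 for Gstm3 (-1.5 to 1.53) and -0.45 for Gstp1 (-1.39 to 0.50). The calls that were made under vehicle and not under FGF21 are therefore not shown to differ between treatments, and these intervals include differences of more than 2-fold for Gsta1, Gstm3 and Gstp1.

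Does FGF21 change GST expression within a genotype? In controls, 3 FGF21-treated against 7 vehicle-treated livers, 0.0542% of all genes were called in either direction (0.0501% higher and 0.00417% lower). None of the 10 GST genes was called by edgeR or DESeq2, and 0 had an unadjusted p under 0.05, against 1476 of all 23972 genes. The groups overlapped for all 10 genes, while 0.997% of all genes were without overlap in the higher and 1.28% in the lower direction. The log2 differences ran from -0.25 for Gsta1 to 0.39 for Gsta3. The narrowest interval was that of Gstt1, -0.22 to 0.61, and the widest that of Gsta1, -2.47 to 1.98, so with 3 FGF21-treated controls a change of 2-fold was within the interval for some genes. Animal numbers had 3 digits in 6 of the 7 vehicle-treated controls and in 0 of the 3 FGF21-treated ones. Treatment and number series can therefore hardly be told apart in controls.

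In Lmna ADKO mice, 8 FGF21-treated against 6 vehicle-treated livers, edgeR called 0% of all genes, but 61 genes when library 3 of the FGF21 group was left out, and DESeq2 called 15. None of the GST genes was called by edgeR or DESeq2. An unadjusted p under 0.05 was found for 1 of the 10, Gstt3, and for 1608 of all 23972 genes. Animal numbers had 3 digits in 1 of the 6 vehicle-treated and 4 of the 8 FGF21-treated mice. No GST gene was called with the number series as a term or in mice with 4-digit numbers only. The groups overlapped for all 10 genes, while 0.025% of all genes were without overlap in the higher and 0.0501% in the lower direction. Gsta1, at 5.68 to 22.1 CPM with vehicle, was at 1.26, 4.74 and 18.8 CPM (lowest, median and highest) with FGF21. Of the 8 FGF21-treated libraries, 4 were below every vehicle-treated library, and the others overlapped. The log2 difference was -1.10 with an interval of -2.28 to 0.09 (edgeR adjusted p = 0.704).

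Gstp1 had a median of 496 CPM with FGF21 and 723 CPM with vehicle, and 5 of 8 FGF21-treated libraries were below every vehicle-treated library, while library 7 at 1800 CPM was above all. The log2 difference of -0.11 (interval -0.70 to 0.48) was -0.50 when library 7 was left out (lowest edgeR adjusted p over such fits 0.514). Gstm3 had a similar arrangement, with a median of 74.5 CPM against 123 CPM, 5 of 8 FGF21-treated libraries below every vehicle-treated one, library 7 at 340 CPM, and a log2 difference of -0.17 (interval -1.09 to 0.75).

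Gsta2 was lower than every vehicle-treated library in 6 of 8 FGF21-treated libraries, with a log2 difference of -0.43 (interval -1.38 to 0.51). Gstt3 went the other way: it was at 44.9, 61.4 and 131 CPM with vehicle and 43.8, 123 and 159 CPM with FGF21, and 7 of 8 libraries with FGF21 exceeded the median of those with vehicle. Its log2 difference was 0.73 (interval 0.04 to 1.42, edgeR adjusted p = 0.704). The other 5 genes had log2 differences of 0.04 to 0.25.

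The 10 genes did not all vary together across the 24 libraries, in which points share the group differences and the gene length slope, so the following correlations of log2 CPM are descriptions. With group differences left in, the highest Pearson r, 0.90, was that of the pairs Gsta1 with Gstm3, Gsta1 with Gstp1 and Gstm3 with Gstp1, which had 0.72, 0.79 and 0.75 after the group means were removed. Within groups the highest were Gsta4 with Gstm1 (0.92) and Gsta3 with Gstt1 (0.91), followed by Gsta2 with Gstm1 (0.83), Gsta4 with Gstt1 (0.82) and Gsta3 with Gsta4 (0.81). Gstt1 and Gstt3 correlated with each other (0.77, and 0.74 within groups) and hardly with Gstm3 (-0.14 and -0.34). Over all libraries Gsta3 and Gstt1 had 0.59 and Gsta4 and Gstm1 0.72.

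Among 12468 other expressed genes, those whose log2 CPM correlated best with the highest-level gene of each class were found over the same 24 libraries. For Gstp1 they included Gpx4 (r = 0.947), a glutathione peroxidase that reduces phospholipid hydroperoxides, and Arpp19 (0.935). For Gsta3 they were Bckdhb (0.912), Slc25a1 (0.903) and Mpc1 (0.901), which encode a subunit of the branched-chain ketoacid dehydrogenase, the mitochondrial citrate carrier and a subunit of the mitochondrial pyruvate carrier. For Gstm1 they were Gm10123 (0.885), Cbr1 (0.867), a carbonyl reductase, and Ndufaf5 (0.86). For Gstt1 they were H2-Ke6 (0.902), Ecsit (0.899) and Apoa2 (0.895).

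The rest of the glutathione pathway moved in both directions in vehicle-treated mice, where 8.48% of all genes were called. Of 17 other GST and membrane-bound (MAPEG) genes in the table, 2 were called higher and 3 lower. The higher ones were Gstm4 (log2 fold change 0.64, edgeR adjusted p = 0.00169) and Gstm5 (0.63, edgeR adjusted p = 0.0322), both of the Mu class. The lower ones were Gstm7 (-0.72), Gstt2 (-0.99) and Gsto1 (-0.68), with edgeR adjusted p of 0.00135, 0.000461 and 0.00161. This list did not hold the predicted genes Gm3776 and Gm10639, which share sequence with Gsta1 and were both called higher.

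Genes of the Mu class were called in both directions. Gstm4 was at 33.8 to 55.4 CPM in vehicle-treated controls and 55.7 to 82.6 CPM in Lmna ADKO livers, and Gstm7 was at 40.2 to 70.4 CPM in controls and 28.7 to 43.6 CPM in Lmna ADKO livers. Gstm6 was not called (log2 difference -0.06). Of the Theta class, Gstt2 was called lower, at 81.9 to 182 CPM in controls and 51.7 to 87.4 CPM in Lmna ADKO livers, while Gstt1 and Gstt3 did not pass.

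In the supply of glutathione, 1 of 14 genes was called higher and 1 lower. Gclc, the catalytic subunit of the rate-limiting enzyme of glutathione synthesis, was higher (log2 fold change 0.88, edgeR adjusted p = 0.00146), at 121 to 269 CPM in controls and 240 to 461 CPM in Lmna ADKO livers. Cbs, which leads homocysteine toward cysteine, was lower (-0.85, edgeR adjusted p = 0.00108). Of 7 glutathione peroxidases 3 were called higher, Gpx3 (1.27), Gpx4 (0.90) and Gpx7 (0.64), and 0 lower.

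Among 15 genes for export and breakdown of conjugates, 2 were called higher and 2 lower. The conjugate exporter Abcc4 was higher (log2 fold change 0.85), and Ggt6 (-0.65) and the aminoacylase Acy1 (-0.74) were lower. The fourth, named after its values were seen because it falls below the expression limit of the rule for named genes, was Nat8, which acetylates cysteine conjugates to mercapturic acids. Nat8 was at 0.166 to 0.682 CPM in controls and 2.42 to 3.85 CPM in Lmna ADKO livers, for a log2 fold change of 3.16 (edgeR adjusted p = 3.94e-05).

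Among transcripts of the regulators, Nr1i3, which encodes CAR, was called lower. It had a log2 fold change of -1 (edgeR adjusted p = 0.00157), with medians of 459 CPM in controls and 211 CPM in Lmna ADKO livers. Nfe2l2, which encodes NRF2, was at 65.1 to 80.1 CPM and 65.3 to 96.0 CPM and was not called (0.23). Of 12 textbook target genes of NRF2, CAR, PXR and AHR, 8 were called higher and 1 lower, with a median log2 fold change of 0.91. The 4 with the lowest adjusted p were Aldh1a7 (1.52), Ugdh (1.29), Srxn1 (1.13) and, in the lower direction, the AHR target Cyp1a2 (-1.44). Cyp1a2 is on the pericentral list as well and is among the 7 genes called lower there. These lists were drawn up with earlier results of the data known, so the counts describe them and are not independent evidence of a direction.

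In FGF21-treated mice, where 2.88% of all genes were called, the same lists held fewer calls. Gstm4 was higher (log2 fold change 0.75, edgeR adjusted p = 0.0127), and Gstt2 (-0.91) and Gsto1 (-0.88) were lower. None of the 14 supply genes or the 7 peroxidases was called by edgeR. Nat8 was higher (2.74), Nr1i3 lower (-1.30), and of the 12 target genes 6 were higher and 1 lower, led by Cyp2c55 (2.67) and Aldh1a7 (1.59). Without the 3 libraries that stand apart the target genes called were 7 higher and 1 lower under vehicle and 5 higher and 1 lower under FGF21, the supply genes called under vehicle were 3 higher and 1 lower, and 1 peroxidase was called under FGF21.

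**Figure D5:**
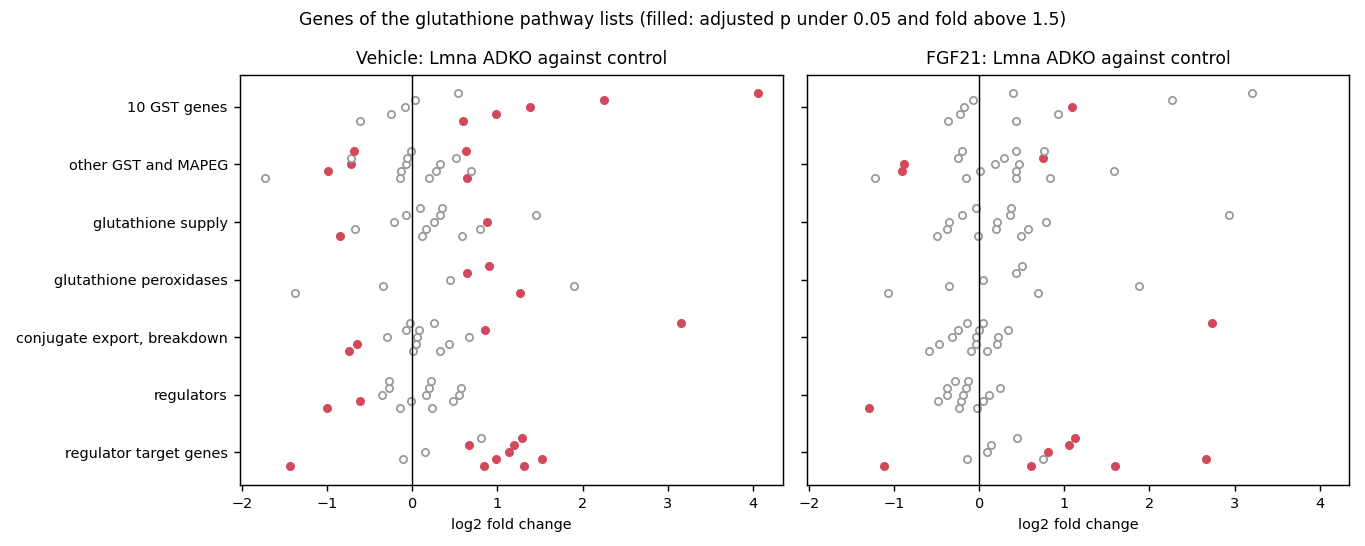
Log2 fold change of Lmna ADKO against control for the 10 GST genes and for 6 lists of related genes, under vehicle (left) and FGF21 (right); each point is 1 gene, and filled points were called. Under vehicle 8 of 12 regulator target genes are filled to the right of 0, while the other GST genes have filled points on both sides.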

How the data were processed

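Liver RNA libraries, made by a dUTP strand-marking protocol from 200 ng of total RNA, gave gene counts that the authors deposited as 1 table of 24 libraries. Submitters' processing notes name cutadapt 4.8, FastQC 0.11.8, STAR 2.7.8a, RSEM 1.3.3 and GRCm38, and the study's methods name Ensembl release 102; the deposited counts are whole numbers, and rounding of RSEM estimates would not be visible. Totals were 19863304 to 21510054 per library, and 23926 of 23972 genes had exon lengths in the annotation.

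Counts were fitted for all genes and all 4 groups with edgeR 4.0.16 (quasi-likelihood test, TMM) in R 4.3.3, with 5 contrasts, and tested on simulated data first. DESeq2 1.42.0 was an alternative. Log2 CPM used a prior count of 2. Groups came from the labels, and libraries are taken as 1 mouse each. Over 67 pairs of libraries within groups, chi-square per degree of freedom was 14.1 to 196, so none was a repeat of another. Samples share no replicate numbers across groups that pair them.

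The 10 genes, the lists and the tests were chosen with earlier results of these data known. Named genes were the 10, up to 4 called genes per pathway list with the lowest adjusted p and a mean log2 CPM of at least 0, close paralogs, up to 2 called genes and the first gene of a cell type list, and the 3 genes best correlated with the highest-level gene of each class. The listed symbols Gsta5 and Gsta13 matched no gene in the table, and whether these genes are present under other names was not checked. Some genes that these rules name are not reported here.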

Additional observations from a re-analysis of the deposited data

Results flagged for a closer look

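In 4 of the 30 groups of 6 to 8 libraries examined, 1 library lay far from the others by Dixon's criterion on log2 CPM, where chance flags about 1 in 20. In FGF21-treated Lmna ADKO library 7, Gsta4 was at 111 CPM against 35.6 to 58.4 CPM in the other 7 libraries of the group, Gstm1 was at 3740 CPM against 1400 to 1930 CPM, and Gstp1 was at 1800 CPM against 369 to 690 CPM. This library also had the lowest gene length slope, -0.331, and the part of the slope in these values was not tested. In library 3 of the same group Gstt3 was at 43.8 CPM against 90.6 to 159 CPM in the other 7.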

How the results depend on the processing

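Under vehicle, 4 to 6 of the 10 genes were called under every alternative run, with 4 to 5 when single libraries were left out. Under FGF21, the 1 called gene became 3 with DESeq2, 3 after edgeR's filter on low counts, 4 with the gene length slope as a term, 0 without the 3 libraries that stand apart, and 0 to 2 when single libraries were left out (0 without control FGF21 library 1 or 3, and 2 without Lmna ADKO FGF21 library 4, 6 or 7). The cause was not tested. No gene was called in the other comparisons under any alternative. Over all genes, calls under FGF21 numbered 690 of 23972, against 1022 of 16062 with DESeq2 and 838 of 14699 after edgeR's filter. They numbered 344 with only the groups compared, 148 with 4-digit animal numbers only and 402 without the 3 libraries. When single libraries were left out they numbered 339 to 1149. Under vehicle 3623 passed the adjusted p alone. FGF21 against vehicle called 0 genes in Lmna ADKO mice, against 61 without FGF21 library 3 and 15 with DESeq2, and 13 in controls, against 38 with DESeq2 and 3 to 26 when single libraries were left out.

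Signs changed only for values that were not called. With the animal number series as a term, the log2 difference was -0.17 for Gsta4 under vehicle, 0.07 for Gstt3 under FGF21, -0.06 for Gstt3 in controls, and 0.11, 0.10 and 0.06 for the interaction of Gsta3, Gsta4 and Gstm1. With 4-digit numbers only it was 0.08 for Gsta4 under FGF21, and 0.03 for Gstm3 and 0.19 for Gstp1 in Lmna ADKO mice. Without the 3 libraries it was 0.23 for Gsta2 and 0.14 for Gstt3 under FGF21, 0.04 for Gstm2 in controls, -0.14, -0.13 and -0.06 for Gsta4, Gstm1 and Gstm2 in Lmna ADKO mice, and 0.93, 0.25, -0.10 and -0.61 for the interaction of Gsta1, Gsta2, Gstm2 and Gstm3. With the length slope as a term it was 0.02 for Gstt3 under FGF21, -0.01 for Gsta4 in controls, -0.11, -0.07 and -0.03 for Gsta4, Gstm1 and Gstm2 in Lmna ADKO mice, and -0.12 for the interaction of Gstm3.

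Leaving out single libraries gave -0.29 to 0.22 for Gsta2 and -0.09 to 0.13 for Gsta4 under vehicle, and -0.73 to 0.46, -0.48 to 0.08 and -0.24 to 0.12 for Gsta2, Gsta4 and Gstt3 under FGF21. In controls it gave -2.38 to 0.38 for Gsta1, -0.99 to 0.21 for Gsta2, -0.17 to 0.10 for Gstm2, -0.03 to 0.57 for Gstp1, -0.01 to 0.33 for Gstt1 and -0.02 to 0.35 for Gstt3. In Lmna ADKO mice it gave -0.13 to 0.16, -0.12 to 0.14, -0.06 to 0.12 and -0.63 to 0.02 for Gsta4, Gstm1, Gstm2 and Gstm3. For the interaction it gave -1.48 to 1.28 (Gsta1), -0.64 to 0.56 (Gsta2), -0.37 to 0.20 (Gsta3), -0.50 to 0.07 (Gsta4), -0.07 to 0.21 (Gstm2), -0.44 to 0.23 (Gstm3) and -0.10 to 0.24 (Gstt1).

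No paired analysis was possible because the replicate numbers only count libraries within a group. The sums with Gm3776, Gm10639, Gstp-ps and Gm20441, and the lists without the 3 libraries, were chosen after seeing the data. Gsta1 in controls rested on 0 to 52 counts, so its fold is the least precise.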
